A study of Mus musculus with 4 samples.

Results

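The strongly TCR-signalled thymocytes described here were 3618 of 27310 cells (13.2%) in 2 droplet libraries of mouse thymocytes that had been sorted as CD4+CCR7+. They were chosen by their own counts: a cell barcode with at least 2000 UMIs (unique molecular identifiers, 1 per captured transcript), at least 500 genes and at most 10% mitochondrial UMIs was kept as a cell. It was called strongly signalled where its UMIs of Nr4a1, Nr4a3, Egr2 and Egr3 summed to at least 4 and it had no UMI of Foxp3, Il2ra, Cd8b1 or Rag1. Cells that passed the same 4 zero filters with a sum of 0 or 1 are called weakly signalled and served as the comparison. One library came from Cd4Cre mice (WT) and 1 from Cd4Cre Cgasfl/fl mice (Cgas KO), and a T cell receptor (TCR) library was made for each genotype. Both genotypes therefore carry the Cre recombinase, which the Cd4 promoter drives from the double-positive stage of T cell development onward, and the labels set them apart by the floxed alleles of Cgas, the gene of the cytosolic DNA sensor cGAS. Age, sex, strain background and the number of mice in each library are not stated in the labels. The genotypes pose the question of what loss of Cgas does to these thymocytes.

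There were 1676 strongly signalled cells in WT (13.0% of 12929 cells, 95% exact binomial interval 12.4 to 13.6%) and 1942 in Cgas KO (13.5% of 14381 cells, 12.9 to 14.1%). The comparison cells were 5365 in WT and 6177 in Cgas KO. Levels are given in CPM, the usual scale of single-library expression: the UMIs of a gene, summed over the cells of a class and library, relative to all UMIs of those cells. The strongly signalled cells held 10646535 UMIs in WT and 11336990 in Cgas KO, and the weakly signalled cells 28516898 and 29387926. With 1 library per genotype there is no replicate, so no test was run and no p-value is given. Every interval below is an exact 95% interval that covers counting error only, neither variation between mice nor between libraries.

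Some barcodes may not be independent cells. The 2 expression libraries shared 276 barcodes, 5 of which were strongly signalled in both, and whether this exceeds what a common set of barcodes gives was not tested. In the Cgas KO TCR library, 634 clonotypes (sets of identical receptor chains) were carried by exactly 2 kept barcodes, against 20 in WT, so that 9.37% of the kept Cgas KO barcodes with a TCR stood in such pairs and 0.333% of those in WT. Of the 634 pairs, 42 had both barcodes among the strongly signalled cells and 66 had 1 of them. Counting each clonotype once left 1675 strongly signalled cells in WT (13.0%) and 1868 in Cgas KO (13.6%). The doublet measure also differed between the classes: at least 2 productive beta chains were seen in 11.6% (10.1 to 13.3%) of strongly signalled and 5.42% (4.83 to 6.06%) of weakly signalled cells in WT, and in 11.9% (10.5 to 13.5%) and 6.04% (5.46 to 6.66%) in Cgas KO. Results are therefore also given with these barcodes left out or counted once.

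Thymocytes test their TCR on self peptides, and the strength of that contact decides between death, survival and diversion into other lineages. Nr4a1 (Nur77) and Nr4a3 encode nuclear receptors, and Egr2 and Egr3 zinc finger transcription factors, that are switched on within a short time of TCR ligation and are widely used to read its strength. In the medulla, where CCR7 guides CD4 single-positive cells, strong signals are linked to deletion through the BH3-only protein Bim (Bcl2l11), while costimulation through CD28 and receptors of the TNF receptor superfamily shapes whether cells die or become regulatory T cells.

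The start regions of Nr4a1, Nr4a3 and Egr2, which are 3 of the 4 genes that defined the class, are shown first, because the class rests on their transcription; that of Egr3 is not shown. They are the 250 bases before the annotated RefSeq start (GRCm38.p6, the same build as the mm10 of the submitters' processing notes), written 5′ to 3′ on the gene's strand. Capitals mark the letters TGACG or CGTCA, the core that cAMP response element binding proteins recognise, and in Egr2 also CCATATATGG, a CArG box as bound by serum response factor.
Nr4a1, chr15:101266596-101266845, plus strand: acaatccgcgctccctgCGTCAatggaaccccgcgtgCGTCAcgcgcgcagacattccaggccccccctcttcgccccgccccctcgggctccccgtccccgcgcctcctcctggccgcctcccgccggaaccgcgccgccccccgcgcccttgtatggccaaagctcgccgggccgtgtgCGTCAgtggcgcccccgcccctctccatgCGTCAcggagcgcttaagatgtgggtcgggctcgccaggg
Nr4a3, chr4:48045055-48045304, plus strand: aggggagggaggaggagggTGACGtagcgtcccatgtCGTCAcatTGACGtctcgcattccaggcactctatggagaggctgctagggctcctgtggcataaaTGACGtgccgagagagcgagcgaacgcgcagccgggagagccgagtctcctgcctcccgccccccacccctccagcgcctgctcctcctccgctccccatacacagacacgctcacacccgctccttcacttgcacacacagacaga
Egr2, chr10:67537619-67537868, plus strand: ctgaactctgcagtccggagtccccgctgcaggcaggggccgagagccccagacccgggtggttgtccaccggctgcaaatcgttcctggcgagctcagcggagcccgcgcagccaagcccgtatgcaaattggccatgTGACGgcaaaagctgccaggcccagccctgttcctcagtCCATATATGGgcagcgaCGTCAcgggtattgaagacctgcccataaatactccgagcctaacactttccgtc
The Nr4a1 and Nr4a3 windows each hold 4 matches of TGACG on either strand, and the Egr2 window, 1 of 5 starts listed for that gene and the one with the most matches, holds 2 matches and 1 CArG box. Of all 32851 windows of this length in the table, 17.8% held at least 1 TGACG on either strand, 0.137% held at least 4, and 1.47% held a CArG box. A match of letters is a description of the window and not a measured binding site.

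The next pair is shown because these are the survival genes with the largest fold in the strongly signalled cells. Capitals mark CGCCCACGC, the reverse complement of GCGTGGGCG, which EGR family proteins recognise.
Bcl2a1b, chr9:89199023-89199272, plus strand: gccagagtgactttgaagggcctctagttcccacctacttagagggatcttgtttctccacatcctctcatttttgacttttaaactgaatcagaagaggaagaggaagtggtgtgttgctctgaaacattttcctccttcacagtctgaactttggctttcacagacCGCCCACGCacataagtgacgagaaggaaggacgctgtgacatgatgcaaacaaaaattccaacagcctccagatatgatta
Bcl2a1d, chr9:88731851-88732100, minus strand: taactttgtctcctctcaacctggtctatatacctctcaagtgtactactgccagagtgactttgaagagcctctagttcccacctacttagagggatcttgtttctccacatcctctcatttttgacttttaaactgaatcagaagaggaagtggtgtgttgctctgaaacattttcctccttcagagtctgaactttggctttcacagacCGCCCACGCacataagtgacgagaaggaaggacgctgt
The windows share a run of 84 identical bases. Bcl2a1b and Bcl2a1d encode near-identical forms of the anti-apoptotic protein A1, so reads could have been divided between them and each value below is uncertain by itself. GCGTGGGCG occurred on either strand in 0.536% of all windows and in those of 75 of the 5544 tested genes that had one (1.35%). It occurred for 5 of the 69 genes with a window that were at least 1.5-fold higher in strongly signalled cells (7.25%), namely Bcl2a1b, Bcl2a1d, Hivep1, Med14 and Trim13.

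The 4 genes of the rule are given as a description, since they chose the cells. Nr4a1 made up 85.5% of the summed UMIs in WT and 85.2% in Cgas KO. Its level was 1442 CPM in strongly and 42.5 CPM in weakly signalled WT cells, and 1407 and 52.2 CPM in Cgas KO. Nr4a3 reached 170 and 178 CPM in the strongly signalled cells of WT and Cgas KO, Egr2 56.2 and 48.0 CPM, and Egr3 17.5 CPM in both. The class is therefore mainly one of Nr4a1: it was the only one of the 4 genes seen in 42.8% of the WT and 43.1% of the Cgas KO cells, while at least 2 of the genes were seen in 56.9% and 56.4%. The median sum was 8 in WT and 7 in Cgas KO, and the highest sums were 62 and 81. Free RNA, read from barcodes of at least 20 and fewer than 200 UMIs, held Nr4a1 at 400.1 and 399.5 CPM in the same order.

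**Figure D1:**
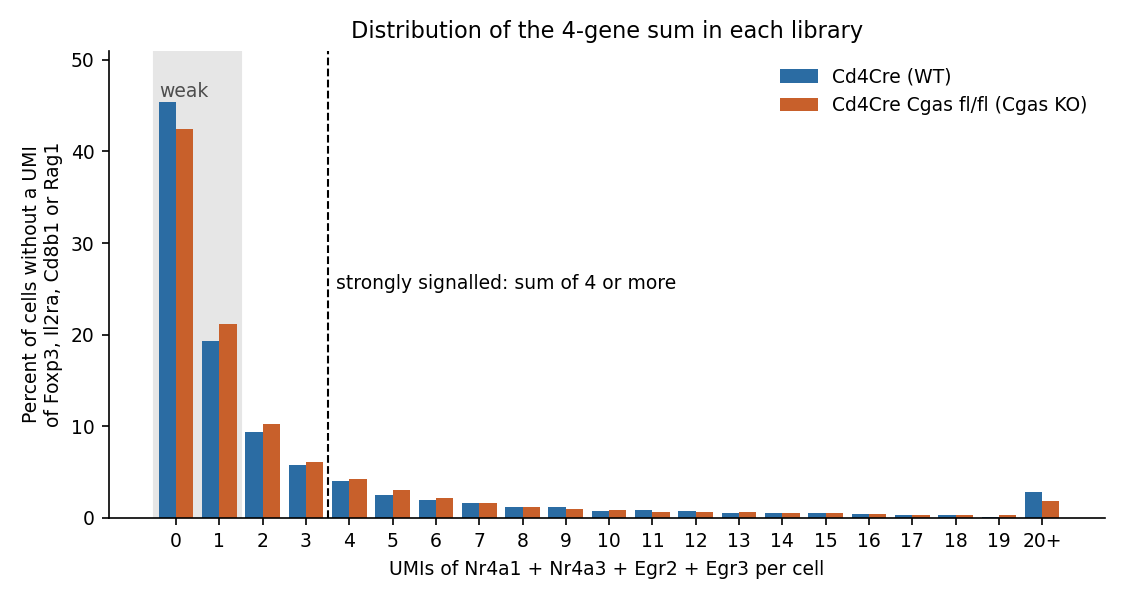
Share of cells (y axis, percent of the cells that passed the 4 zero filters) by the sum of Nr4a1, Nr4a3, Egr2 and Egr3 UMIs (x axis) in WT and Cgas KO. The sum falls off without a gap at the limit of 4: sums of 3 were found in 475 WT and 586 Cgas KO cells and sums of 4 in 332 and 411. Sums of 20 or more share the last bar.

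The class is a range of a score and not a separate cell type. Just outside the limit, 475 WT and 586 Cgas KO cells had a sum of 3, and just inside it 332 and 411 had a sum of 4. Bcl2l11, which the rule did not use, was at 87.9 CPM in WT cells with a sum of 3 and 95.02 CPM in those with a sum of 4, and at 98.3 and 113 CPM in Cgas KO, so the cells on either side of the limit were alike in this gene. A further 283 WT and 239 Cgas KO cells reached a sum of 4 but had a Foxp3 or Il2ra UMI, and 735 and 795 had a Cd8b1 or Rag1 UMI. Strongly signalled cells were somewhat deeper (median 5277 UMIs in WT and 4885.5 in Cgas KO) than weakly signalled ones (4760 and 4263). Mitochondrial UMIs had a median of 1.02% and 0.999% in strongly and 0.995% and 1.002% in weakly signalled cells of WT and Cgas KO.

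Markers of the labelled cell type are given as a description, after thinning each cell to 2000 UMIs. Cd4 was seen in 45.2% of strongly signalled WT cells (78.2% before thinning) and 44.4% of Cgas KO cells (73.5%). In cells with at least 2 Cd8b1 UMIs and none of Rag1, which had median depths of 5151 and 4715.5 UMIs, Cd4 was seen in 18.4% (36.3% before thinning) and 17.3% (33.9%). Cd8a was seen in 2.92% (6.504% before thinning) and 3.45% (7.88%) of the strongly signalled cells and in 66.9% (79.57%) and 66.8% (77.9%) of the Cd8b1-positive ones. Cd8b1 counts chose both groups, so this gap does not check the cell type. Weakly signalled cells, which passed the same zero filters, gave Cd8a in 3.32% (6.15%) and 2.93% (5.31%). They gave Cd4 in 40.9% (69.6%) and 42.4% (67.3%). Ccr7, the receptor of the sort, stood at 789 and 922 CPM in strongly signalled WT and Cgas KO cells. After thinning, Ccr7 was seen in 57.9% (82.0% before thinning) and 63.6% (84.4%) of them. It was seen in 58.4% (82.3%) and 64.4% (83.9%) of weakly signalled cells, and in 48.8% (73.0%) and 55.6% (76.4%) of the Cd8b1-positive ones. The strongly signalled cells thus carried Cd4 and Ccr7 transcripts, and so did the weakly signalled ones.

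Across all genes, few stood apart between the classes. Of 6895 genes with enough counts, 87 were at least 1.5-fold higher in strongly signalled cells in both libraries, which is 1.26%, and 32 were at least 1.5-fold lower, which is 0.464%. For these counts, and wherever a gene is said to pass or miss the limit of 1.5-fold, the ratio was taken after adding 1 CPM to each level, and the 8 genes of the rule are left out. The folds printed with levels or intervals are ratios of the CPM values themselves, with nothing added. The median log2 ratio of all tested genes was 0.02 in WT and 0.03 in Cgas KO. All 180 genes past 1.5-fold in WT had the same direction in Cgas KO, where 146 genes were past it. With the barcodes of several beta chains left out, 100 genes were higher (86 of them shared) and 42 lower (32 shared), and with each clonotype counted once 82 were higher and 34 lower.

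Of the genes listed for a part in cell death, 4 of the 37 measured were at least 1.5-fold higher in both libraries and none was lower. The list was measured from 20 UMIs upward, and over all 15123 genes at that level 1.12% were higher and 0.628% lower. Gadd45b, a growth arrest and DNA damage inducible protein that acts on stress kinases, was at 109 CPM in strongly and 17.1 CPM in weakly signalled WT cells and at 105 and 19.2 CPM in Cgas KO. It was thus 6.36-fold (5.72 to 7.09) and 5.50-fold (4.97 to 6.09) higher, the largest fold of any tested gene outside the rule when the smaller of the 2 libraries is taken. After thinning, Gadd45b was seen in 13.1% (23.3% unthinned) of strongly and 2.93% (6.58%) of weakly signalled WT cells, and in 12.2% (23.1%) and 3.45% (6.90%) in Cgas KO. Most strongly signalled cells therefore showed no Gadd45b UMI at this depth. The median log2 ratio of the whole list was 0.07 in WT and 0.12 in Cgas KO, close to that of all genes.

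Bcl2l11, which encodes Bim, the BH3-only protein needed for deletion of self-reactive thymocytes, was at 125 and 60.1 CPM in strongly and weakly signalled WT cells and at 130 and 61.7 CPM in Cgas KO. The folds were 2.08 (1.94 to 2.24) and 2.11 (1.96 to 2.26). It was seen after thinning in 20.8% (38.4% unthinned) of strongly and 10.9% (22.2%) of weakly signalled WT cells and in 20.2% (38.9%) and 10.6% (19.96%) in Cgas KO. The intervals of the 2 libraries overlapped almost fully. Fasl, the ligand of the death receptor Fas, was rare at 7.33 CPM against 3.65 CPM in WT and 7.23 against 3.54 CPM in Cgas KO. Gadd45g, a relative of Gadd45b, was at 32.4 against 20.4 CPM and 35.2 against 20.9 CPM. These 2 genes lay close to the limit: with 5 CPM added, the smaller fold of Fasl was 1.43 and that of Gadd45g 1.47.

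The other BH3-only genes and the effectors of mitochondrial death moved less. Bbc3, which encodes Puma, was at 40.6 against 31.0 CPM in WT and 35.6 against 29.4 CPM in Cgas KO, folds of 1.31 (1.16 to 1.47) and 1.21 (1.08 to 1.37). Pmaip1, which encodes Noxa, gave folds of 1.69 and 1.502 at 8.17 and 8.03 CPM. With 1 CPM added its smaller log2 ratio was 0.51, in Cgas KO, which misses the limit. The pore formers Bax and Bak1 gave folds of 0.99 and 0.98 in WT and 1.05 and 0.96 in Cgas KO, with intervals that include 1. The death receptor gene Fas was at 69.0 against 65.5 CPM in WT and 74.3 against 60.1 CPM in Cgas KO. Txnip, which binds and inhibits thioredoxin, stood lower in strongly signalled cells, at 201 against 308 CPM and 211 against 308 CPM, a difference past the limit in WT but not in Cgas KO, where it was 0.69-fold. Stk17b, a death-associated kinase gene and the most abundant of the list at 647 and 682 CPM, gave folds of 1.13 and 1.14, Trp53 1.17 and 1.18, Cycs 1.07 and 1.20, and Pdcd4 0.87 and 0.85. The difference on the death list was thus carried by Gadd45b and Bcl2l11, with Fasl and Gadd45g at lower levels. Whether Gadd45b acts for or against death in these cells was not tested.

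**Figure D2:**
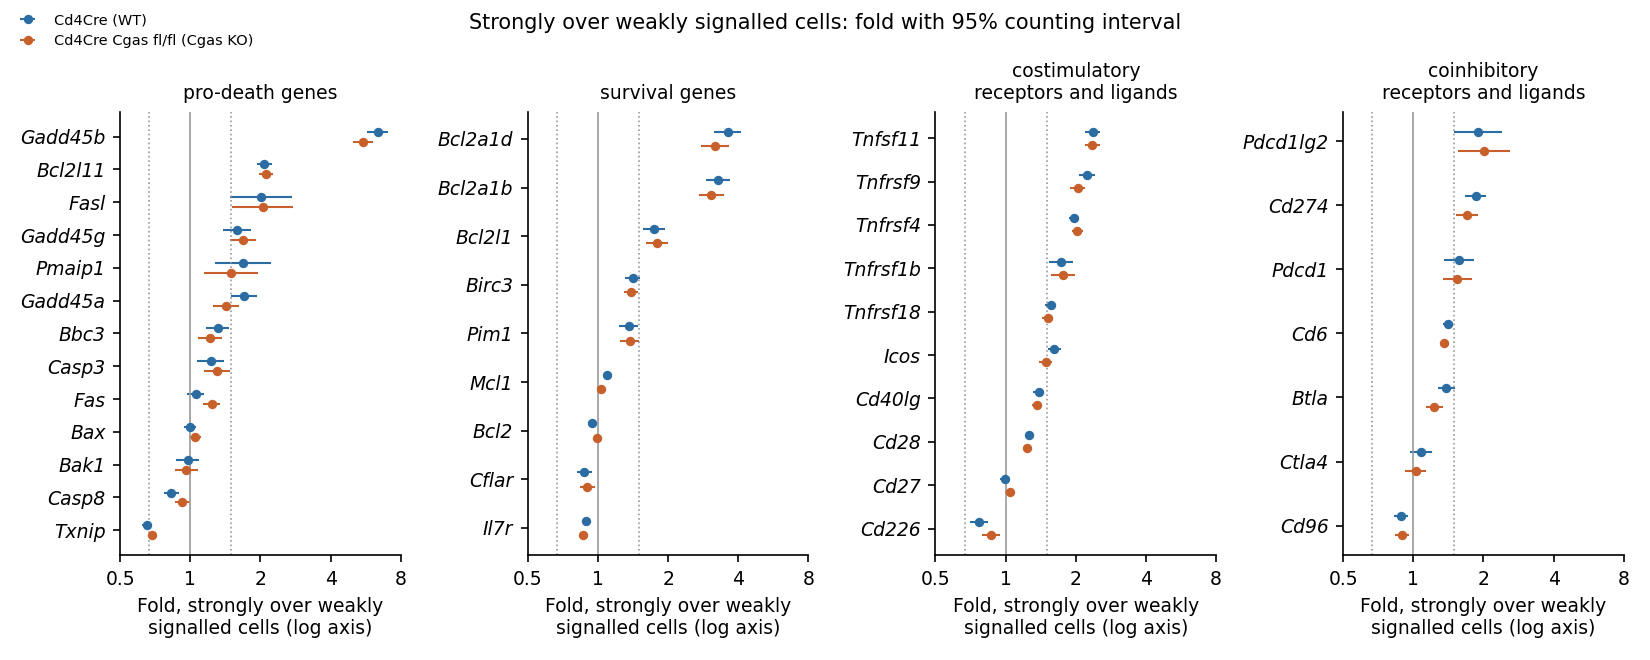
Fold of strongly over weakly signalled cells (x axis, log scale, with exact 95% intervals for counting error) for death, survival, costimulatory and coinhibitory genes (rows, in 4 panels) in WT and Cgas KO, with dotted lines at 1.5-fold in either direction. In each panel a few genes lie past 1.5-fold in both libraries, led by Gadd45b at 6.36 and 5.50 and Bcl2a1d at 3.60 and 3.17, while Bcl2, Mcl1 and Bax lie near 1.

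Of 31 measured survival genes, 3 were at least 1.5-fold higher in both libraries (1.12% over all genes) and none was lower (0.628%). Bcl2a1b was at 62.6 CPM in strongly and 19.1 CPM in weakly signalled WT cells and at 49.3 and 16.1 CPM in Cgas KO, folds of 3.27 (2.92 to 3.67) and 3.06 (2.71 to 3.47). Bcl2a1d was at 47.4 and 13.2 CPM in WT and 41.5 and 13.1 CPM in Cgas KO, folds of 3.60 (3.14 to 4.12) and 3.17 (2.77 to 3.64). Bcl2l1, which encodes Bcl-xL, was at 48.7 and 28.1 CPM in WT and 50.0 and 27.9 CPM in Cgas KO, folds of 1.74 (1.55 to 1.94) and 1.79 (1.61 to 1.9999). Genes on both sides of the mitochondrial switch were therefore higher in the same class of cells. Against weakly signalled cells taken without the zero filters, the smaller fold of Bcl2l1 was 1.45.

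The most abundant survival genes did not share this difference. Bcl2 was at 435 CPM in strongly and 462 CPM in weakly signalled WT cells and at 431 and 437 CPM in Cgas KO, folds of 0.94 (0.91 to 0.97) and 0.99 (0.96 to 1.02). Mcl1, another gene of a Bim-binding protein, was at 382 and 350 CPM in WT cells and at 348 and 338 CPM in Cgas KO cells. Il7r, the receptor chain for the survival cytokine IL-7, was at 303 and 340 CPM in WT and 269 and 311 CPM in Cgas KO. Foxo1, a transcription factor that supports Il7r and exit from the thymus, gave folds of 0.75 and 0.79. The inhibitor of apoptosis gene Birc3 was at 116 against 82.2 CPM and 115 against 83.3 CPM, below the limit in each library. Il2rg, the shared cytokine receptor chain, gave folds of 1.06 and 1.05, Birc6 1.01 and 1.02, and Dad1 1.02 and 1.10. The median log2 ratio of the list was 0.03 in WT and 0.04 in Cgas KO.

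Of 28 measured costimulatory receptors and ligands, 5 were at least 1.5-fold higher in both libraries (1.12% over all genes) and none was lower (0.628%). All 5 belong to the TNF and TNF receptor superfamilies, from which much of the list was drawn. Other members of these families on the list, such as Cd27 and Ltb, did not pass the limit. Tnfsf11, which encodes RANKL, the thymocyte signal that matures medullary epithelium, was at 122 and 51.6 CPM in strongly and weakly signalled WT cells and at 127 and 53.9 CPM in Cgas KO. Its folds were 2.36 (2.19 to 2.55) and 2.35 (2.19 to 2.53). Tnfrsf9, which encodes 4-1BB, was at 108 and 48.1 CPM in WT and 106 and 52.0 CPM in Cgas KO, folds of 2.24 (2.07 to 2.42) and 2.04 (1.89 to 2.20). Tnfrsf4, which encodes OX40, was at 225 and 114 CPM in WT and 231 and 113 CPM in Cgas KO, folds of 1.96 (1.86 to 2.07) and 2.03 (1.93 to 2.14). These receptors are also known from regulatory T cells. Of 19 measured genes associated with such cells and not used by the rule, 7 were at least 1.5-fold higher in both libraries (1.12% over all genes) and 1, Itgae, was lower (0.628%). The 7 were Tnfrsf9, Tnfrsf4, Tnfrsf1b, Tnfrsf18, Ikzf2, Lrrc32 and Ccr8, and the list had a median log2 ratio of 0.32 in WT and 0.22 in Cgas KO. Itgae and Lrrc32 were rare. In WT cells with a sum of 0 they were at 2.09 and 1.07 CPM, and with a sum of 10 or more at 0.23 and 3.87 CPM. The cells had no Foxp3 or Il2ra UMI by rule, and the part of regulatory T cells or their precursors in these differences was not tested. Tnfrsf1b, the second TNF receptor, gave folds of 1.73 and 1.76. Tnfrsf18, which encodes GITR, gave 1.56 and 1.52 and fell under the limit when each clonotype was counted once, with a smaller fold of 1.499.

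Of the CD28 family receptors on the costimulatory list, Cd28 and Icos did not pass the limit in both libraries. Cd28 was at 562 and 446 CPM in strongly and weakly signalled WT cells and at 602 and 489 CPM in Cgas KO, folds of 1.26 (1.22 to 1.30) and 1.23 (1.20 to 1.27). Icos, an inducible relative of Cd28, was at 138 and 84.9 CPM in WT and 139 and 93.3 CPM in Cgas KO. Its folds were 1.62 (1.52 to 1.73) and 1.49 (1.39 to 1.58), which straddle the limit. Under the alternatives the smaller fold of Icos lay between 1.44 and 1.74, and it passed the limit under several of them. That of Tnfrsf18 lay between 1.44 and 1.66, so these 2 genes are not set apart by the limit. Cd40lg, which activates antigen-presenting cells, gave folds of 1.38 and 1.36, and Cd27 gave 0.99 and 1.04. Slamf6, a receptor of the SLAM family, was lower at 14.6 against 24.2 CPM in WT and 46.5 against 68.3 CPM in Cgas KO. Cd2, an adhesion receptor, gave folds of 1.14 and 1.10, and Ltb, the lymphotoxin beta gene, 0.82 and 0.85. The median log2 ratio of the costimulatory list was 0.15 in WT and 0.14 in Cgas KO.

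Of 16 measured coinhibitory receptors and ligands, 3 were at least 1.5-fold higher in both libraries (1.12% over all genes) and none was lower (0.628%). The 3 form 1 axis. Cd274, which encodes the ligand PD-L1, was at 57.6 and 31.1 CPM in WT and 50.6 and 29.8 CPM in Cgas KO, folds of 1.85 (1.67 to 2.06) and 1.70 (1.53 to 1.89). Pdcd1lg2, which encodes PD-L2, was at 11.6 and 6.10 CPM in WT and 9.88 and 4.90 CPM in Cgas KO, and its smaller fold was 1.49 with 5 CPM added. Pdcd1, which encodes their receptor PD-1, was at 27.9 and 17.8 CPM in WT and 28.2 and 18.3 CPM in Cgas KO, folds of 1.57 (1.36 to 1.81) and 1.54 (1.34 to 1.78). Pdcd1 fell under the limit when each clonotype was counted once, with a smaller fold of 1.49. Cd6, a scavenger receptor of T cells, gave folds of 1.40 and 1.36 at 330.1 and 315 CPM. Ctla4 differed little, with folds of 1.08 (0.96 to 1.20) and 1.02 (0.92 to 1.14).

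Other genes known to follow TCR signals stood higher too. Of 31 measured response genes outside the rule, 18 were at least 1.5-fold higher in both libraries (1.12% over all genes). Their list had a median log2 ratio of 0.73 in WT and 0.65 in Cgas KO. Egr1, the related early transcription factor, was at 205 and 49.0 CPM in WT and 177 and 48.3 CPM in Cgas KO, folds of 4.19 (3.92 to 4.49) and 3.67 (3.43 to 3.93). Nfkbid, a nuclear partner of NF-kappaB, was 3.35-fold and 3.12-fold higher, and Rel, an NF-kappaB subunit, 1.92-fold and 1.88-fold. Cd69 and Cd5, surface proteins that scale with TCR signal, gave folds of 1.67 and 1.61 in WT and 1.65 and 1.54 in Cgas KO. The chemokine genes Ccl4 (6.57 and 5.38 CPM) and Xcl1 (8.55 and 13.5 CPM) were rare but gave folds of 9.37 and 5.19 in WT and 9.30 and 6.502 in Cgas KO. Xcl1 did not climb evenly with the sum. At sums of 0, 4 to 5, 6 to 9 and 10 or more it was at 1.48, 11.6, 2.34 and 10.5 CPM in WT. In Cgas KO it was at 1.36, 1.55, 0.58 and 36.1 CPM. Whether a few cells carried its fold was not tested. Fos and Jun, which also respond to tissue dissociation, gave folds of 1.08 and 0.98 in WT and 0.99 in each in Cgas KO, and none of the 18 measured stress and dissociation genes was past the limit in both libraries.

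Of 30 measured feedback regulators of TCR signalling, 4 were higher past the limit (1.12% over all genes). These were Dusp5, Dusp4, Dusp10 and Egr1, which stands on both lists. Dusp5, a nuclear phosphatase of the kinase ERK, was at 316 and 71.6 CPM in WT and 310 and 85.1 CPM in Cgas KO, folds of 4.41 (4.17 to 4.66) and 3.64 (3.46 to 3.84). Cblb, a ubiquitin ligase that damps costimulation, gave folds of 1.12 and 1.13. Among all tested genes, Fosl2, a partner of AP-1, was at 46.1 and 11.9 CPM and at 58.8 and 16.1 CPM, and the homeobox repressor Tgif1 at 40.5 and 15.4 CPM and at 43.9 and 17.7 CPM. The median log2 ratio of the feedback list was 0.25 in WT and 0.17 in Cgas KO.

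Markers of maturity ran the other way. Of 21 measured genes of mature single-positive cells, 8 were at least 1.5-fold lower in both libraries (0.628% over all genes) and none was higher (1.12%). The list had a median log2 ratio of -0.42 in WT and -0.41 in Cgas KO. S1pr1, the receptor that lets cells leave the thymus, was at 101 CPM in strongly and 174 CPM in weakly signalled WT cells and at 122 and 202 CPM in Cgas KO. With the rule applied after thinning, S1pr1 was under the limit, at 0.72-fold. Ms4a4b, a membrane protein of mature T cells, was at 309 and 562 CPM in WT and 332 and 562 CPM in Cgas KO. Of 16 measured genes of the immature and semi-mature stage, 4 were higher (1.12% over all genes). Among them was Cd24a, the heat-stable antigen lost on maturation, at 86.3 and 30.7 CPM in WT and 99.2 and 36.6 CPM in Cgas KO. Cd69 was another of them. Cd69, Nab2, Tox and Id3 also stand on the list of TCR response genes, so the 2 lists are not independent. Against weakly signalled cells taken without the zero filters, the smaller fold of Cd24a was 1.61. Other genes that were low relative to weakly signalled cells were Rflnb (15.8 against 40.6 CPM in WT, 15.4 against 37.0 in Cgas KO), Ly6a, St8sia6, Adam19, Tent5c, Arsb and Ms4a6b.

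The levels were next followed along the sum, from 0 to 10 or more UMIs of the 4 genes, as a description, since the sum chose the cells. Cells with a sum of 10 or more numbered 647 in WT and 661 in Cgas KO. Gadd45b passed from 16.6 CPM at a sum of 0 through 41.0 CPM at 4 to 5 and 60.6 CPM at 6 to 9 to 192 CPM at 10 or more in WT, and from 16.1 through 49.2 and 62.6 to 196 CPM in Cgas KO. Most of its difference thus lay in the cells of the highest sum, where it was 11.6-fold (10.2 to 13.2) and 12.2-fold (10.7 to 14.0) above a sum of 0. The difference in Bcl2l11 was spread more evenly, from 53.4 through 96.7 and 126 to 146 CPM in WT and from 56.8 through 103 and 121 to 163 CPM in Cgas KO. Bcl2a1b stood at 16.9, 34.0, 43.2 and 97.0 CPM in WT and at 15.9, 28.3, 26.5 and 89.0 CPM in Cgas KO over the same steps. Bcl2 showed no such course: it was at 455 CPM at a sum of 0 and 451 CPM at 10 or more in WT, and at 429 and 387 CPM in Cgas KO.

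All 5 costimulatory genes past the limit were higher at a sum of 10 or more than at 0. From a sum of 0 to 10 or more, Tnfrsf4 went from 108 to 279 CPM in WT and from 109 to 325 CPM in Cgas KO, and Tnfsf11 from 48.3 to 148 CPM and from 50.6 to 161 CPM. Tnfrsf9 was 3.02-fold and 3.19-fold at 10 or more relative to 0, Tnfrsf1b 1.96-fold and 2.30-fold, and Tnfrsf18 1.81-fold and 2.14-fold. Outside these 5, Icos (1.81-fold and 1.72-fold) and Cd40lg (1.69-fold and 1.62-fold) were also higher. Cd27 was nearly level at 1.07-fold and 1.10-fold, while Ltb (0.77-fold and 0.84-fold) and Slamf6 (0.45-fold and 0.58-fold) were lower. Pdcd1 was at 17.9, 24.5 and 23.1 CPM at sums of 0, 4 to 5 and 6 to 9 in WT, and at 16.6, 21.9 and 19.8 CPM in Cgas KO. It stood at 33.7 and 41.5 CPM at 10 or more. S1pr1 went down from 182 to 84.9 CPM in WT and from 208 to 83.1 CPM in Cgas KO, and Txnip from 317 to 167 CPM and from 317 to 162 CPM. The bins differed little in depth: the median was 4687 UMIs at a sum of 0 and 5521 at 10 or more in WT, and 4194.5 and 4920 in Cgas KO.

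**Figure D3:**
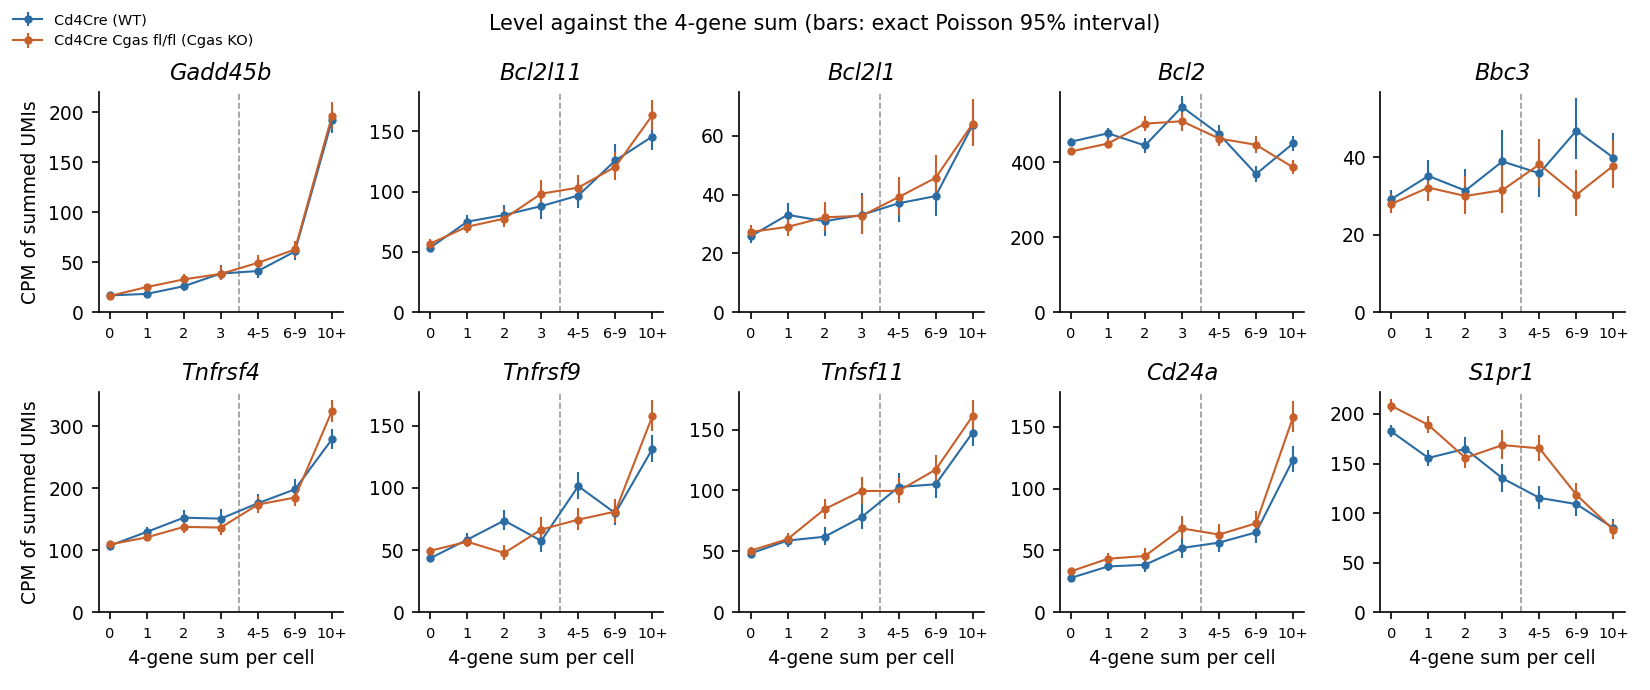
Level (y axis, CPM, with exact 95% intervals for counting error) of 10 genes against the sum of Nr4a1, Nr4a3, Egr2 and Egr3 UMIs in a cell (x axis, 7 bins, the dashed line marks the limit of the class) in WT and Cgas KO. Gadd45b turns up steeply at a sum of 10 or more, to 192 and 196 CPM, Bcl2l11 and Tnfrsf4 climb over most bins, and S1pr1 falls. Bcl2 follows no clear course. Bbc3 moves unevenly and is 1.37-fold and 1.36-fold at a sum of 10 or more relative to 0.

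Because maturity moved with the signal, the comparison was repeated within stages, using the UMIs of Cd24a and S1pr1 as stage marks. Of the strongly signalled cells, 366 in WT (21.8%) and 456 in Cgas KO (23.5%) had Cd24a without S1pr1, 374 (22.3%) and 464 (23.9%) had S1pr1 without Cd24a, and 50.4% and 47.0% had neither. Among Cd24a-positive cells, Gadd45b was at 214 CPM in strongly and 30.1 CPM in weakly signalled WT cells and at 184 and 39.0 CPM in Cgas KO. Among S1pr1-positive cells it was at 50.7 and 13.4 CPM in WT and 40.4 and 12.2 CPM in Cgas KO. The difference was thus present at both stages, with folds of 7.10 (5.64 to 9.04) and 4.72 (3.84 to 5.85) in the first and 3.80 (2.98 to 4.84) and 3.32 (2.57 to 4.29) in the second. Bcl2l11 gave folds of 2.37 (2.01 to 2.79) and 2.13 (1.82 to 2.51) among Cd24a-positive and 1.59 (1.37 to 1.83) and 1.86 (1.62 to 2.14) among S1pr1-positive cells. Bcl2l1 gave 2.09 and 1.91, and 1.55 and 1.79. Tnfrsf4 gave 2.34 and 2.36, and 1.74 and 1.44.

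Within the strongly signalled cells the 2 stages were not alike. Gadd45b was 4.22-fold (3.48 to 5.16) higher in the Cd24a-positive than in the S1pr1-positive cells of WT and 4.56-fold (3.72 to 5.63) in Cgas KO. Bcl2l1 was at 73.4 against 24.6 CPM in WT and 74.0 against 32.4 CPM in Cgas KO, and Tnfrsf9 at 160 against 76.9 CPM and 196 against 51.3 CPM. Nr4a1 itself was 1.62-fold higher in the Cd24a-positive cells of each library, whereas Egr1 was lower there, at 178 against 217 CPM in WT and 147 against 174 CPM in Cgas KO. Ctla4 was also lower, at 36.1 against 71.0 CPM in WT and 24.2 against 72.5 CPM in Cgas KO. The strongly signalled S1pr1-positive cells thus held less Gadd45b, Bcl2l1 and Tnfrsf9 but more Egr1 and Ctla4.

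**Figure D4:**
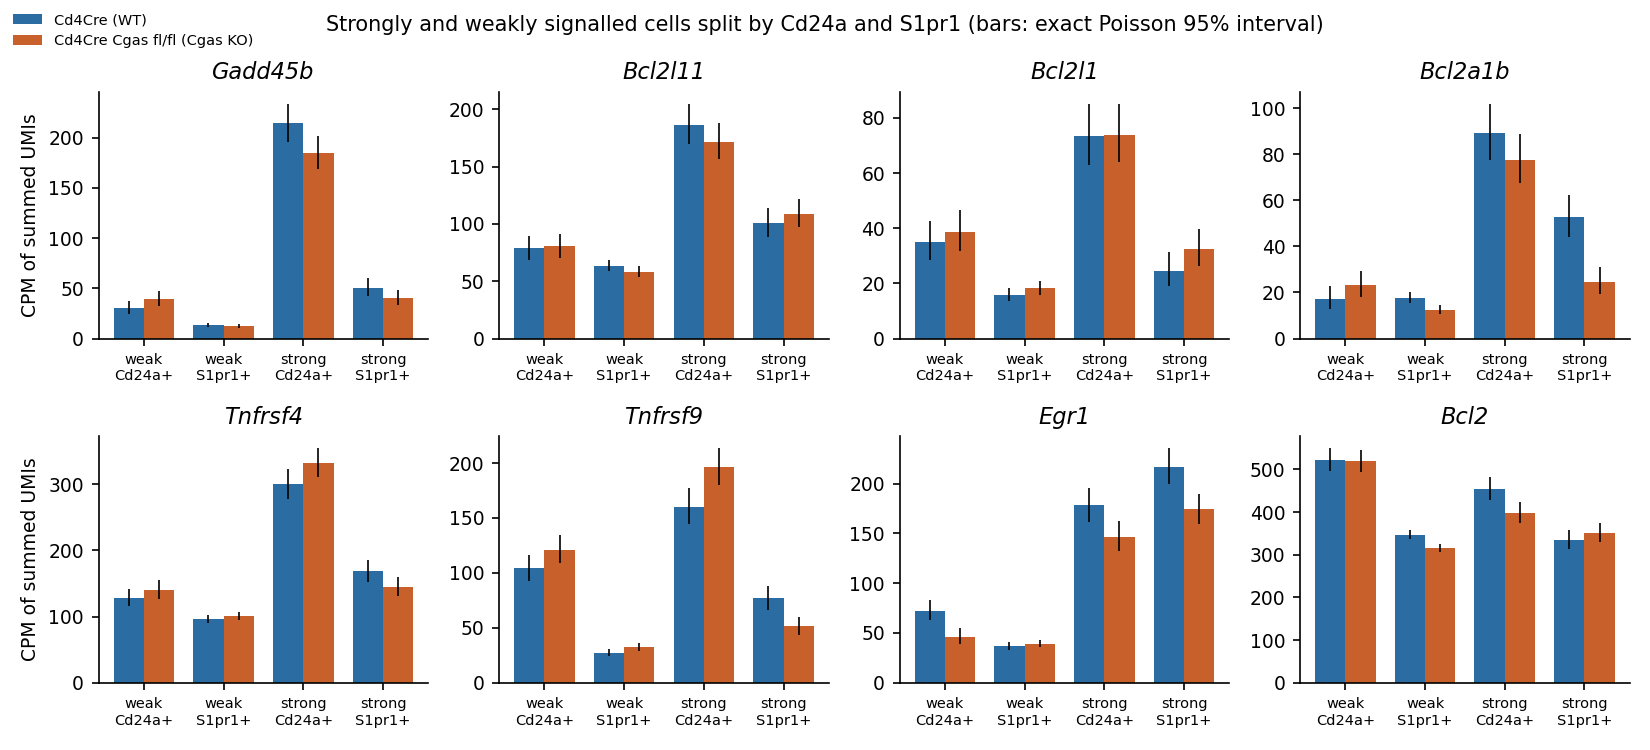
Level (y axis, CPM, with exact 95% intervals for counting error) of 8 genes in weakly and strongly signalled cells with a Cd24a UMI and no S1pr1 UMI (Cd24a+) or the reverse (S1pr1+), in WT and Cgas KO. Gadd45b is highest in strongly signalled Cd24a-positive cells, at 214 and 184 CPM, and stays above the weakly signalled cells at both stages.

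A second split used Ikzf2, which encodes Helios, a factor of agonist-selected thymocytes. At least 2 Ikzf2 UMIs were found in 335 strongly signalled WT cells (19.99%, median 5690 UMIs) and 419 Cgas KO cells (21.6%, median 5113), and none in 1185 (median 5169) and 1292 (median 4837). Bcl2l11 was at 196 CPM in the first and 102 CPM in the second in WT, and at 222 and 98.4 CPM in Cgas KO, folds of 1.91 (1.70 to 2.15) and 2.25 (2.01 to 2.52). Bcl2 was the reverse, at 279 against 492 CPM in WT and 266 against 495 CPM in Cgas KO. The Helios-positive part of the class therefore had more Bcl2l11 and less Bcl2 than the part without Ikzf2. Its Nr4a1 level was 0.97-fold (0.94 to 1.01) in WT and 1.24-fold (1.20 to 1.29) in Cgas KO, and its Egr1 was lower, at 158 against 221 CPM and 144 against 194 CPM.

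Several costimulatory and survival genes also separated by Ikzf2. Tnfrsf9 was at 371 against 27.7 CPM in WT and 377 against 20.2 CPM in Cgas KO, folds of 13.4 (11.5 to 15.7) and 18.6 (15.7 to 22.3). Bcl2a1d was at 107 against 27.5 CPM and 96.6 against 23.1 CPM, Pdcd1 at 55.2 against 19.9 CPM and 65.6 against 16.9 CPM, and Fas at 104 against 59.1 CPM and 118 against 58.2 CPM. Il7r was lower, at 189 against 336 CPM in WT and 133 against 326 CPM in Cgas KO, and so was Bbc3, at 34.3 against 42.8 CPM and 26.0 against 37.4 CPM. The ligand gene Tnfsf11 ran against the receptors, at 81.5 against 139 CPM and 96.6 against 132 CPM. Cd8a was higher with Ikzf2, at 42.6 against 13.6 CPM in WT and 41.9 against 12.8 CPM in Cgas KO, in cells that had no Cd8b1 UMI by rule. The part of CD8-lineage cells in these differences was not tested.

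Cells that the zero filters set aside are given for comparison. Those with a sum of at least 4 and a Foxp3 or Il2ra UMI had Tnfrsf4 at 628 and 743 CPM (WT and Cgas KO), 2.79-fold (2.62 to 2.98) and 3.22-fold (3.01 to 3.44) above the strongly signalled cells, and Ctla4 at 146 and 93.5 CPM. Bcl2l11 in these cells was at 168 and 207 CPM, 1.34-fold and 1.60-fold above, while Gadd45b was at 233 and 343 CPM and Tnfsf11 at 67.8 and 70.3 CPM, the last below the strongly signalled cells. Cells with a Cd8b1 or Rag1 UMI had Bcl2l11 at 136 and 158 CPM and Gadd45b at 103 and 123 CPM, within 1.21-fold of the strongly signalled cells.

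Few cells of the class carried several UMIs of another cell type's markers. For each of 10 marker lists the median strongly signalled cell had 0 UMIs after thinning. The lists of the CD8 lineage, the double-positive stage and regulatory T cells include Cd8b1, Rag1, Foxp3 or Il2ra. The rule set these genes to 0 in both classes, so low counts on those lists were partly fixed in advance. At least 3 UMIs of 14 dendritic cell markers were found in 2.45% of strongly and 1.03% of weakly signalled WT cells and in 1.75% and 1.30% in Cgas KO. Their summed level was 217 against 154 CPM in WT and 174 against 168 CPM in Cgas KO. Of the 9 measured dendritic cell markers, 9 were higher in strongly than in weakly signalled cells in WT and 2 in Cgas KO. Their median log2 ratios were 0.68 and -0.59. Xcr1, Clec9a and Siglech were at 0 in the strongly signalled cells of both libraries, but Xcr1 and Siglech were also at 0 in weakly signalled WT cells. Markers of the double-positive stage reached 3 UMIs in 4.77% and 5.36% of strongly and 8.16% and 6.18% of weakly signalled cells. Markers of B cells, thymic epithelium and erythroid cells reached it in 0 of the 1676 and 0 of the 1942 strongly signalled cells, which allows shares of up to 0.179% and 0.154% for cells with at least 3 such UMIs at this depth. Cells of those types that would give fewer marker UMIs are not covered by this limit. The part of dendritic cell RNA in the results was not tested.

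Because the classes differed in depth, the share of cells with several beta chains was also taken within a range of depth. Among cells of 4000 to 8000 UMIs, 5.84% (4.48 to 7.47%) of strongly and 4.28% (3.60 to 5.04%) of weakly signalled WT cells had at least 2 beta chains, and 8.74% (7.08 to 10.6%) and 5.94% (5.12 to 6.83%) in Cgas KO. Within this range the intervals of the classes overlapped in WT and were apart in Cgas KO. When all such barcodes were left out, the smaller fold of the 2 libraries was 5.70 for Gadd45b, 2.16 for Bcl2l11, 3.22 for Bcl2a1b, 1.82 for Bcl2l1, 2.40 for Tnfsf11, 2.02 for Tnfrsf9 and 1.96 for Tnfrsf4, all with 1 CPM added. With them the same values were 5.28, 2.06, 2.94, 1.71, 2.33, 2.02 and 1.96, so the folds of these 7 genes were as large without the barcodes.

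The TCR chains of the classes differed in some measures and not in others. A beta chain was found in 92.1% (90.7 to 93.3%) of strongly and 93.2% (92.5 to 93.8%) of weakly signalled WT cells and in 92.0% (90.7 to 93.2%) and 94.5% (93.9 to 95.1%) in Cgas KO, where the intervals were apart. Of cells with an alpha chain, at least 2 were found in 19.5% (17.5 to 21.6%) and 14.4% (13.4 to 15.4%) in WT and 20% (18.1 to 22.0%) and 14.9% (14.0 to 15.9%) in Cgas KO, with intervals apart in both libraries. Like several beta chains, several alpha chains were thus more frequent in strongly signalled cells. Among cells with 1 beta chain, at least 2 alpha chains were found in 14.9% (13.0 to 17.0%) and 13.0% (12.0 to 14.1%) in WT and 14.2% (12.5 to 16.2%) and 13.6% (12.6 to 14.6%) in Cgas KO. Hydrophobic residues at position 6 or 7 of the beta CDR3, the loop that meets the peptide, where such residues are known to promote self-reactivity, were found in 38.7% (36.1 to 41.3%) and 37.3% (35.9 to 38.7%) in WT and 36.9% (34.5 to 39.4%) and 35.9% (34.7 to 37.2%) in Cgas KO. The mean CDR3 length was 13.82 and 13.87 residues in WT and 13.84 residues in both classes of Cgas KO. Intervals of the 2 classes overlapped for alpha chains in cells with 1 beta chain and for hydrophobic residues. TRBV12-1 was used by 4.15% of strongly and 2.80% of weakly signalled cells in WT and by 3.41% and 2.43% in Cgas KO, a direction that both libraries shared for 11 of 21 segments. It was picked among the 21 after its values were seen.

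Between genotypes, the share of strongly signalled cells differed little. The ratio of the Cgas KO to the WT share was 1.04 (0.975 to 1.11), and 1.05 with each clonotype counted once. After thinning to 2000 UMIs, with a sum of at least 2 as the rule, the shares were 14.8% and 16.3%, a ratio of 1.10 (1.04 to 1.17), and with a sum of at least 4 they were 6.44% and 6.90%, a ratio of 1.07 (0.978 to 1.18). Whether a difference of this size exceeds that between mice of 1 genotype cannot be told from 1 library each. Cgas itself was at 5.17 CPM in strongly signalled WT cells and 3.26 CPM in Cgas KO cells, and at 4.70 and 2.82 CPM in weakly signalled ones. The labels do not say which exons are floxed, so these counts over the whole gene do not check the deletion.

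The death, survival and costimulation genes were at like levels in the strongly signalled cells of both genotypes. Of all 6752 tested genes, Cgas KO exceeded WT at least 1.5-fold in 23, which is 0.341%, and lay at least 1.5-fold below it in 28, which is 0.415%. At 20 UMIs or more, 12590 genes gave 1.41% higher and 1.57% lower. None of 36 measured death genes, 1 of 30 survival genes (Birc5, higher at 61.7 against 37.0 CPM) and 3 of 27 costimulatory genes were past the limit. Birc5, which encodes survivin, also acts in mitosis and stands on the list of S phase and mitosis genes. The summed level of that list was 1561 CPM in Cgas KO against 1296 CPM in WT, its median log2 ratio was 0.24, and 1 of 18 members, Birc5, was past the limit. The costimulatory ones were Slamf6, at 46.5 CPM in Cgas KO against 14.6 CPM in WT, and, in the other direction, Tnfsf14 and Cd86. Cd86 is also a gene of antigen-presenting cells, and dendritic cell markers were lower in Cgas KO too: 5 of 8 measured were past the limit, the median log2 ratio was -0.84, and the summed level was 174 against 217 CPM. The part of dendritic cells and of cycling cells in these differences was not tested. The median log2 ratio of Cgas KO over WT was 0.03 for death, -0.04 for survival and 0.01 for costimulatory genes, and 0.0040 for all tested genes. Of the interferon-stimulated genes, which lie downstream of cGAS, 1 of 20 was past the limit, lower in Cgas KO, and the list had a median of -0.23.

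The genes with the largest differences between genotypes belonged mostly to other groups and were shared with weakly signalled cells. Of the 51 genes, 50 had the same direction in weakly signalled cells and 26 were past 1.5-fold there too. Ifi213 had 772 UMIs in the Cgas KO and 4 in the WT cells (68.1 and 0.38 CPM), a 181-fold difference with an interval of 70.5 to 667. Ifi206 was at 72.2 against 3.94 CPM and Ifi208 at 109 against 54.7 CPM. Aim2, a DNA sensor of the same HIN-200 family, was lower, at 10.5 CPM in Cgas KO against 44.7 CPM in WT, and Ifi214 at 17.3 against 36.2 CPM. These family members are near-identical in parts and reads can be divided among them, so their values are uncertain. They lie next to each other on chromosome 1, from 173349547 (Aim2) to 173698393 (Ifi208) in GRCm38.p6, with Slamf6 nearby at 171917458 to 171948958, while Cgas lies on chromosome 9. Genes of the family thus differed in both directions within 1 stretch of the genome, in weakly signalled cells as well. The labels do not give the strain background, so an effect of Cgas and a difference in background around these genes cannot be told apart. By chromosome, 9 of 388 tested genes (2.32%) were past the limit on chromosome 1 and 7 of 231 (3.03%) on chromosome 12.

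Outside that stretch, Slc15a2, a peptide transporter, was at 31.0 and 3.26 CPM in the WT and Cgas KO cells, and Ly6k, a surface antigen, at 31.7 and 13.5 CPM. Dynlt1b, a dynein light chain with near-identical copies, was at 87.4 and 41.9 CPM, and Stx1a, a syntaxin, at 22.2 and 11.7 CPM. Odc1, the first enzyme of polyamine synthesis, was higher in Cgas KO at 89.3 against 39.9 CPM, and in weakly signalled cells at 47.0 against 33.6 CPM. H4c16, a histone gene with near-identical copies, was at 29.9 against 14.9 CPM.

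**Figure D5:**
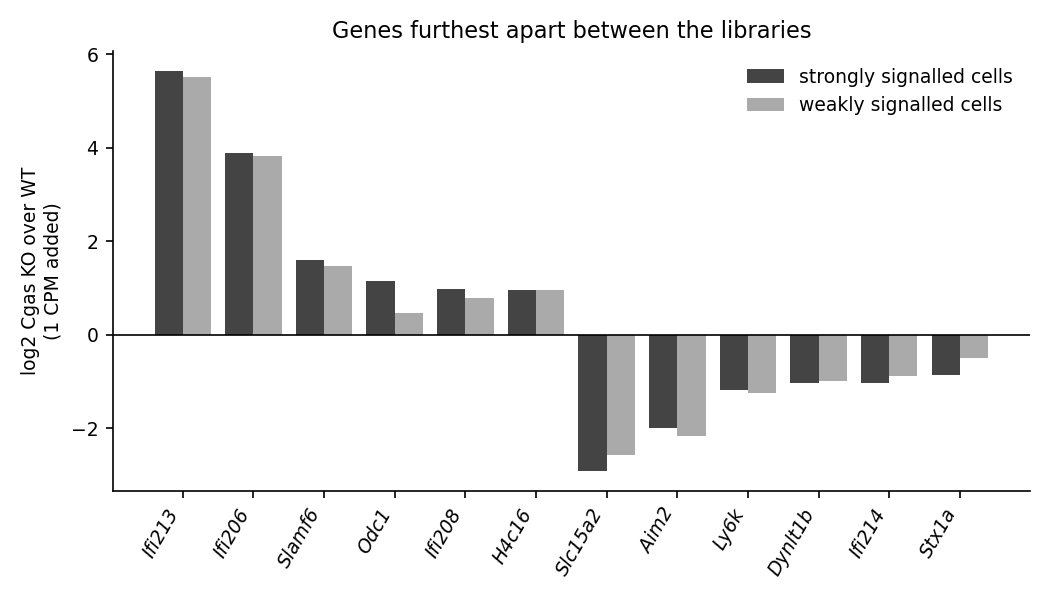
Log2 ratio of Cgas KO over WT (y axis, with 1 CPM added) for the 6 genes furthest apart in each direction (x axis) in strongly and weakly signalled cells. Each gene has the same direction in both classes of cells, with Ifi213 at 5.65 and 5.51 and Slc15a2 at -2.91 and -2.58.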

How the data were processed

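Sorted CD4+CCR7+ thymocytes of 1 Cd4Cre library (WT) and 1 Cd4Cre Cgasfl/fl library (Cgas KO) were measured with a droplet 3' expression kit and a TCR kit, per the labels' protocols. The authors deposited unfiltered UMI counts per gene and barcode, 84763106 in WT and 87310091 in Cgas KO over 588428 and 586687 barcodes, and lists of assembled TCR contigs with a UMI count each. Per the file headers the counts were made with Cell Ranger 8.0.1; 7.0 of Cell Ranger stands in the submitters' processing notes, beside Seurat 5.1.0 and mm10, and the difference remains. Intron counting, strand setting and annotation are not stated in the labels or headers, so overlapping genes cannot be told apart.

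Counts were read and summed with Python 3.11.15, numpy 2.4.6 and pandas 2.3.3, and exact intervals came from scipy 1.17.1. Of barcodes with at least 2000 UMIs, 1 in WT and 3 in Cgas KO were removed for under 500 genes and 0 for over 10% mitochondrial UMIs. No doublet caller was run; barcodes with at least 2 beta chains served as a measure. A gene was tested, meaning compared by its fold, from 100 UMIs over the 4 class sums and 20 CPM in at least 1 of them; listed genes were measured from 20 UMIs. Named genes were, by rule, those of the class definition; death, survival, costimulatory and coinhibitory genes past 1.5-fold, at 200 CPM or central to selection; up to 6 of each other list; the 10 with the largest smaller-library fold in each direction; and the 6 furthest apart in each direction between genotypes. Pmaip1, Bax, Bak1, Foxo1, Birc3, Icos, Cd40lg, Cd27, Rel, Cd69, Cd5, Fos, Jun, Cblb, Tnfsf14 and Cd86 were added after their values were seen. Receptor segments and predicted genes were not named, and 1 gene that the rule selects is not reported here. The cells and lists were chosen with earlier results of these data known. Scripts were checked on simulated counts. The alternatives tried were other limits on the sum, depth, thinning, mitochondrial share, comparison cells, multiple beta chains, shared clonotypes, TMM scaling (edgeR 4.0.16), the low-count filter, the added CPM and means over cells.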

Additional observations from a re-analysis of the deposited data

How the results depend on the processing

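No paired analysis was possible because each genotype has 1 expression library and the labels give no replicate numbers. No named gene past 1.5-fold changed direction under an alternative. The Cgas KO to WT ratio of the shares did, and so did the balance of genes higher and lower in Cgas KO. The share of strongly signalled cells was 13.0% in WT and 13.5% in Cgas KO. It was 13.6% and 14.4% from 3000 UMIs, 14.8% and 16.3% after thinning with a sum of at least 2, 16.6% and 17.6% with a sum of at least 3, and 8.79% and 8.58% with a sum of at least 6. The Cgas KO to WT ratio of the shares was 1.04, and lay between 0.977 (sum of at least 6) and 1.10 under the alternatives. Without the filter on low counts 170 genes were higher in strongly signalled cells (87 with it), 95 lower (32 with it) and 376 apart between genotypes (51 with it). The count of lower genes was also 57 in cells of 4000 to 8000 UMIs, 53 in cells with at least 2 of the 4 genes, 98 with the thinned rule, which shared 19 of the 32, and 61 with a sum of at least 6; the cause was not tested. The other alternatives gave 66 to 110 higher genes, 25 to 48 lower genes and 40 to 71 genes apart between genotypes. Of the 51 genes apart between genotypes 45.1% were higher in Cgas KO, and between 37.8% (means over cells) and 52.8% (sum of at least 3) under the alternatives. Of 31 named genes past 1.5-fold, 22 stayed past it under all of the 15 alternatives run for them, and 12 of 97 others passed it under at least 1. The 9 that did not stay were Gadd45g, Fasl, Bcl2l1, Tnfrsf18, Pdcd1, Pdcd1lg2, S1pr1, Adam19 and Arsb. Gadd45b kept a smaller-library fold of 4.56 to 6.73 and Bcl2l11 of 1.86 to 2.44, while Bcl2 stayed between 0.95 and 1.01. Alternatives on clonotypes counted once and on cells with at least 2 of the 4 genes were chosen after seeing the data. Depth limits the rarest genes named, such as Fasl, Pmaip1, Ccl4 and Xcl1.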
